A study of Mus musculus with 7 samples.

Results

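Solute carriers are membrane proteins that move sugars, amino acids, ions, metals, vitamins and metabolites into cells or between the cytosol and organelles, and their genes carry symbols that begin with Slc and a family number. In T cells they set how much glucose, glutamine, leucine and lactate can be exchanged. Regulatory T cells (Tregs) are known to use these routes differently from conventional T cells, with a larger part for fatty acid oxidation. The members described here are the protein-coding genes with such a symbol that had 10 or more counts in each of the 7 libraries. They number 193 of the 320 protein-coding Slc genes with a count in any library, in a table of 25469 genes.

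RNA-sequencing was done on wild-type CD4+CD25+ splenocytes isolated with magnetic beads, with 3 biological replicates of aged (18 months) and 4 of young mice. The sample labels give the young mice an age of 8 weeks, while the study's methods give another young age, and the study describes male C57BL/6 mice. No treatment or surgery is named in the labels of either group, which differ in age only. The question was how the cells of aged mice differ from those of young mice.

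The gene counts numbered 10734234 to 13649310 in a library. Foxp3, Cd4 and Il2ra, which define the cells, were read in every library, and the 9 Treg markers summed to 3199 to 3709.8 CPM (counts scaled to a library's size) in the aged and 2363 to 3929 CPM in the young libraries. Transcripts of other cells were present as well. The 9 erythroid markers found, of 10 listed, ranged from 12781 to 157451 CPM in the aged and from 12438 to 116540.0 CPM in the young libraries, and none of them was called by edgeR, DESeq2 or limma voom, with 0 at an unadjusted p under 0.05. The 10 neutrophil markers summed to 702 to 5379 CPM in the aged and 267 to 955 CPM in the young libraries, with 4 called higher. The 10 macrophage markers summed to 224 to 339 and 362 to 434 CPM, with 4 called lower. The 6 platelet markers summed to 21.1 to 41.5 and 8.62 to 18.0 CPM, and of the 5 tested 2 were called higher. Of the 9 B cell markers 1 was lower, of the 7 dendritic cell markers 1 was higher and 3 lower, of the 6 NK cell markers 2 were lower, of the 6 plasma cell markers 1 was higher, and neither CD8 T cell marker was called. Of the 6 CD4 T cell markers 1 was higher and 1 lower, and of the Treg markers 1 was lower. Mitochondrially encoded genes took 5.08% to 10.7% of the counts in the aged and 2.63% to 3.23% in the young libraries. With these genes and those of haemoglobin and immunoglobulin removed, 32 members were called, 30 of them among the 31 described below. The share called in that fit was 16.6% of the members and 17.5% of all genes tested. The part of the other cells in the results was not tested. None of the markers found was at 0 in every library. In such bulk samples, fewer cells of a type and less RNA per cell cannot be told apart.

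The members were chosen by their counts in all libraries and not by the difference between ages, but a transporter that was nearly absent at one age could not become a member. The members just inside the threshold were Slc1a4, Slc22a2 and Slc24a5, each with a lowest count of 10. Slc1a4 had 30, 21 and 12 counts in the aged and 13, 19, 31 and 10 in the young libraries, Slc22a2 had 10, 23 and 20 and 34, 45, 37 and 15, and Slc24a5 had 18, 10 and 15 and 23, 15, 23 and 21. Just outside were Slc7a11, with 21, 22 and 23 and 9, 11, 10 and 9, and 4 genes tied at a lowest count of 8. Of these Slc24a3 had 95, 98 and 151 and 8, 25, 12 and 11, Slc25a47 had 16, 8 and 16 and 11, 16, 19 and 40, Slc7a10 had 114, 156 and 158 and 8, 16, 18 and 12, and Slc45a3 had 29, 8 and 24 and 77, 110, 64 and 86. All 193 members passed the filter on low counts. The symbol rule also takes in 3 genes that are no transporters, the adaptor genes Slc9a3r1 and Slc4a1ap and the opposite-strand gene Slc7a6os, none of which was called.

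The ages were compared by the quasi-likelihood test of edgeR over 13904 genes, adjusted by Benjamini-Hochberg, and a gene was called at an adjusted p under 0.05. Of the 193 members, 31 were called (16.1%), and the share was 16.7% of all genes tested. Among the 11178 protein-coding genes that meet the same count threshold it was also 16.1%. The share of members called was therefore that of the background. By direction, 23 members were higher in aged Tregs (11.9%, against 9.8% of all genes tested and 8.52% of the protein-coding genes at the threshold) and 8 were lower (4.15%, against 6.94% and 7.63%). The median log2 fold change of the members was 0.067, compared with 0.019 over all genes tested and -0.015 over the protein-coding genes at the threshold, and when libraries were scaled by their size only these values were -0.0099 for the members and -0.052 for all genes tested. In 60 members (31.1%) every aged value lay on one side of every young value, against 29.9% of all genes tested, with 38 higher (19.7%, against 15.5%) and 22 lower (11.4%, against 14.4%). All 31 called members were among these 60. The count of called members was 38, 21 and 18 without aged replicates 1 to 3, and 18, 26, 13 and 16 without young replicates 1 to 4. These are 19.7%, 10.9%, 9.33%, 9.33%, 13.5%, 6.74% and 8.29% of the members, and the share of all genes called in the same fits was 21.5%, 12.2%, 8.9%, 9.58%, 14.5%, 9.28% and 9.03%. In each of these 7 leave-one-out fits, 12 of the members remained called, namely Slc22a15, Slc4a8, Slc26a2, Slc20a1, Slc41a1, Slc16a3, Slc33a1, Slc25a22, Slc45a4, Slc35g1, Slc35d1 and Slc25a23. The share of all genes tested that remained called in all 7 fits was not counted. The 12 are therefore a description with no background share beside them.

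**Figure D1:**
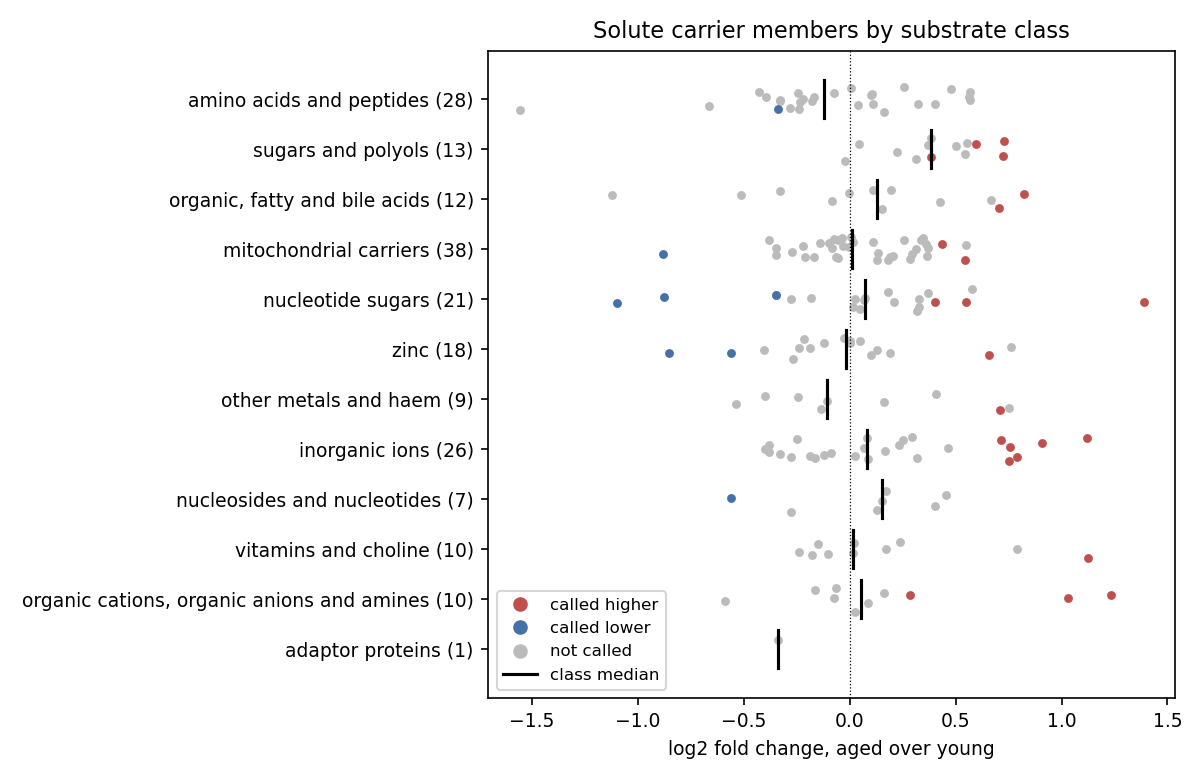
Log2 fold change between aged and young Tregs (horizontal axis) of each of the 193 members, placed by substrate class, with the number of members in brackets. Points are genes, coloured where called higher (23) or lower (8), and black bars are class medians; sugar and polyol transporters have the highest class median, 0.38.

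The start regions of 6 called members are shown first, since these genes had large or stable differences in both directions or hold a motif named below. Each is the 120 bases before a transcription start, 5′ to 3′, from RefSeq on GRCm38.p6. Capitals mark matches on either strand to CACGTG, the E-box bound by Myc and related factors, or to TGCGCNC, a form of the metal response element core. Slc20a1 has another listed start, whose 120 bases (chr2:129206976-129207095) hold no such match and are not printed.
Slc22a15 (chr3:101924454-101924573, minus strand): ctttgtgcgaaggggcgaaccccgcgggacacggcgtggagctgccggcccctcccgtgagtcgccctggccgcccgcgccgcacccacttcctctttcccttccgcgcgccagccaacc
Slc4a8 (chr15:100761627-100761746, plus strand): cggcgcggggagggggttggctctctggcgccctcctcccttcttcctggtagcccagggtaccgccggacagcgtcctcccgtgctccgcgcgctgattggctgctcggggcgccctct
Slc20a1 (chr2:129198653-129198772, plus strand): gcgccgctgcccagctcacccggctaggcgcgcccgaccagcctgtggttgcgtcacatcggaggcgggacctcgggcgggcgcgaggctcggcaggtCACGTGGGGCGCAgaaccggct
Slc35g1 (chr19:38395860-38395979, plus strand): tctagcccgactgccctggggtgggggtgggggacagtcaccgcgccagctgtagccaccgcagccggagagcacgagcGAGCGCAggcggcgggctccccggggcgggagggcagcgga
Slc35d1 (chr4:103215177-103215296, minus strand): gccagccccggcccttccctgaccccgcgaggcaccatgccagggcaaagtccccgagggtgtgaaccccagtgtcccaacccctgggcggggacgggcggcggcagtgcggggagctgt
Slc30a4 (chr2:122702664-122702783, minus strand): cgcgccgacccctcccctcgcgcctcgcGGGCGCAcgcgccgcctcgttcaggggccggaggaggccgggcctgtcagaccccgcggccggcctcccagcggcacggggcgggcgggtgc

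A start region was at hand for 146 of the 193 members. In the window from 250 bases before to 50 after a start, CACGTG was found in 26 of them (17.8%), against 10.5% of 12521 protein-coding genes. It was found in 2 of 18 members called higher, Slc20a1 and Slc33a1, and in none of the 8 called lower. Either TGCACNC or TGCGCNC, which share their first letters and were searched on both strands, was found in 63 members (43.2%) and in 37.6% of the protein-coding genes. Among zinc transporters it was 8 of 15. The amino acid response core TGATGNAA was found in 5 members (3.42%) and in 3.01% of those genes. The 12521 genes had a count in at least 1 library and were not held to the members' threshold of 10 counts in each. The shares therefore compare sets chosen at unlike count thresholds, and no share at the same threshold was computed. A match is only a run of letters in these windows.

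Sugar and polyol transporters were the class with the highest median difference. Of 13 members, 4 rose (Slc5a3, Slc2a6, Slc45a4 and Slc2a3), none fell, and 12 had a positive log2 fold change, with a class median of 0.38 against 0.067 for all members. Over all genes tested 9.8% rose and 7230 of 13904 had a positive value. The classes are small, and their counts are a description beside these shares. Summed over the class, the level was 474, 508 and 476 CPM in aged replicates 1 to 3 and 374, 370.3, 354 and 373 CPM in young replicates 1 to 4, so that the sums did not overlap. No test was made on these sums.

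Slc2a3 encodes GLUT3, a high-affinity glucose transporter of lymphocytes. It was at 128, 115 and 97.2 CPM in the aged and 85.6, 81.6, 91.8 and 89.0 CPM in the young libraries, each aged value above each young one. The rise had a log2 fold change of 0.38 (SE 0.110, adjusted p = 0.0458), and the call held in 1 of 7 leave-one-out fits. Slc2a1, which encodes GLUT1, the main glucose transporter of activated T cells, was at 44.8, 36.7 and 37.2 CPM in the aged and 29.9, 27.3, 29.2 and 34.9 CPM in the young libraries. Its groups did not overlap either, but the log2 fold change of 0.38 (SE 0.123) did not pass (adjusted p = 0.0669). Slc45a4, of a family of proton-coupled sugar transporters, averaged 44.4 ± 4.66 CPM in the 3 aged libraries, compared with 29.4 ± 2.95 CPM (both SD) in the 4 young ones, and rose. Its log2 fold change was 0.60 (SE 0.120, adjusted p = 0.0135).

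Slc5a3 encodes a sodium-coupled carrier of myo-inositol, an osmolyte. It was at 25.9, 31.1 and 32.4 CPM in the aged and 23.2, 20.04, 16.4 and 12.3 CPM in the young libraries, with a log2 fold change of 0.73 (SE 0.208, adjusted p = 0.0461). Slc2a6, a GLUT family member found on lysosomes, was at 9.96, 9.37 and 9.45 CPM and 6.29, 3.92, 6.24 and 6.81 CPM, with young replicate 2 lowest. The groups of both genes were apart, yet Slc5a3 was called in 2 and Slc2a6 in 0 of 7 leave-one-out fits. Slc50a1, which encodes the SWEET1 sugar transporter and was the class member with the highest level per kilobase of exon, was at 81.8, 124 and 111 CPM in the aged and 72.6, 83.7, 63.7 and 79.1 CPM in the young libraries, and aged replicate 1 lay within the young range. Its log2 fold change of 0.50 had an adjusted p of 0.0594, and without aged replicate 1 and young replicate 2 together the value was 0.71 (adjusted p = 0.00703), in a range of 0.00703 to 0.167 over all alternatives.

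**Figure D2:**
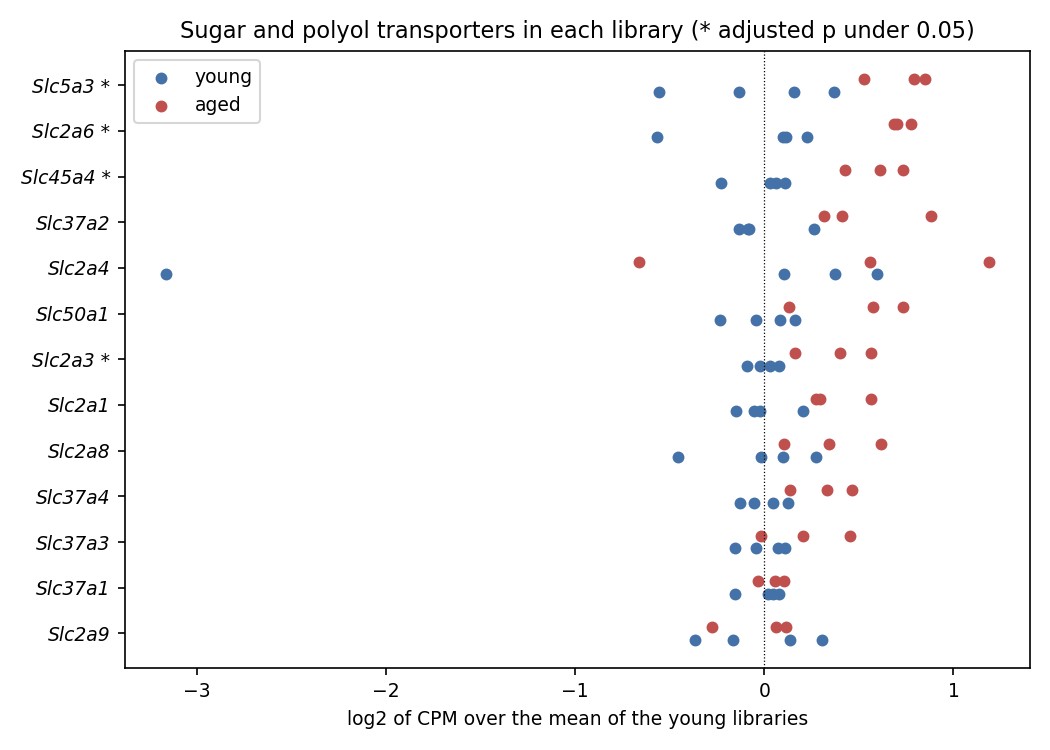
Level of each of the 13 sugar and polyol transporters in each library, as the log2 of its CPM over the mean of the 4 young libraries (horizontal axis). Points are libraries coloured by age and asterisks mark the 4 called genes. The aged points lie to the right of the young points in 7 of the 13 genes. The groups were apart in this direction in 15.5% of all genes tested and in 19.7% of all members. Slc2a4 in young replicate 2, at 0.911 CPM, is the point farthest to the left.

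Amino acid and peptide transporters formed a class of 28 members, in which 1 was called (3.57%, against 16.7% of all genes tested). Their median log2 fold change was -0.12, with 13 of the 28 values above 0. Without Slc7a6os, which is no transporter, the class had 27 members, 12 of them above 0, and a median of -0.17. When aged replicate 1 and young replicate 2 were both left out, further members of the class were called lower, as described below. Slc43a2, which encodes the leucine and phenylalanine carrier LAT4, fell from 87.4, 83.5, 89.5 and 79.8 CPM in the young libraries to 69.5, 65.9 and 66.5 CPM in the aged ones. The decrease had a log2 fold change of -0.34 (SE 0.0815, adjusted p = 0.0264), a call that held in 2 of 7 leave-one-out fits.

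The large neutral amino acid transporter of activated T cells is a pair of the light chain Slc7a5 and the heavy chain Slc3a2. Slc7a5 was at 71.2, 239 and 84.8 CPM in the aged and 129.7, 56.1, 101 and 112 CPM in the young libraries, and Slc3a2 at 148, 289.6 and 164 CPM and 149, 130.2, 122 and 139.6 CPM. Aged replicate 2 stood above the other 6 libraries in both. Neither gene was called, with log2 fold changes of 0.40 (adjusted p = 0.562) and 0.57 (adjusted p = 0.110). Slc1a5, a glutamine carrier, was highest in the same library, at 234, 442 and 289 CPM in the aged and 345, 222, 273 and 355 CPM in the young libraries (adjusted p = 0.799).

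Slc38a1 and Slc38a2 encode sodium-coupled glutamine carriers. Slc38a2 was at 129.7, 113 and 101 CPM in the aged and 183, 131, 147 and 141 CPM in the young libraries, and Slc38a1 at 137, 112 and 137 CPM and 157, 138, 150.3 and 138 CPM. Each aged value lay below each young one in both, but their log2 fold changes of -0.40 and -0.18 had adjusted p-values of 0.0888 and 0.284 and were not called. Slc7a1, the arginine and lysine carrier, was at 99.7, 53.6 and 54.2 CPM in the aged and 84.2, 78.3, 89.3 and 74.5 CPM in the young libraries. Aged replicate 1 alone lay above the young range. The log2 fold change of Slc7a1 was -0.24 (adjusted p = 0.487), and without aged replicate 1 and young replicate 2 together it was -0.62 (adjusted p = 0.00841), in a range of 0.00764 to 0.856 over all alternatives.

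Inorganic ion transporters had 6 of 26 members higher and none lower in aged Tregs, where 9.8% of all genes tested were higher and 6.94% lower, with a class median of 0.084 (0.085 for the 25 members without Slc4a1ap). Slc4a8, a sodium-driven chloride and bicarbonate exchanger that raises cell pH, was at 37.1, 40.6 and 37.6 CPM in the aged and 23.9, 21.7, 22.03 and 21.2 CPM in the young libraries. The log2 fold change of 0.79 (SE 0.0973, adjusted p = 0.00187) had the smallest adjusted p of the class. Slc26a2, a sulphate transporter, rose from 46.8, 37.9, 49.6 and 42.9 CPM to 72.4, 67.7 and 84.8 CPM, a log2 fold change of 0.76 (SE 0.120, adjusted p = 0.00529). Slc20a1, the sodium-phosphate carrier PiT1, rose from 70.6, 50.4, 71.1 and 74.0 CPM to 104, 113 and 109.9 CPM, a log2 fold change of 0.71 (SE 0.136, adjusted p = 0.0111). In all of these genes the lowest aged library was above the highest young one, and for Slc20a1 young replicate 2 stood below the other young libraries.

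The other rises of the class were in genes of lower level. Slc12a8, of the cation-chloride cotransporter family, had 31, 52 and 50 reads at the older and 24, 25, 29 and 22 at the younger age, with a log2 fold change of 1.12 (SE 0.285, adjusted p = 0.0315). Slc9a5, a sodium-proton exchanger, and Slc26a10 had log2 fold changes of 0.91 and 0.75, with adjusted p-values of 0.0280 and 0.0326. These were called in 1, 3 and 3 of 7 leave-one-out fits, in that order. Slc4a7, a sodium-bicarbonate carrier of proliferating T cells, was at 99.8, 59.4 and 96.0 CPM and 72.7, 69.0, 71.2 and 60.2 CPM and was not called (log2 fold change 0.32, adjusted p = 0.244).

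**Figure D3:**
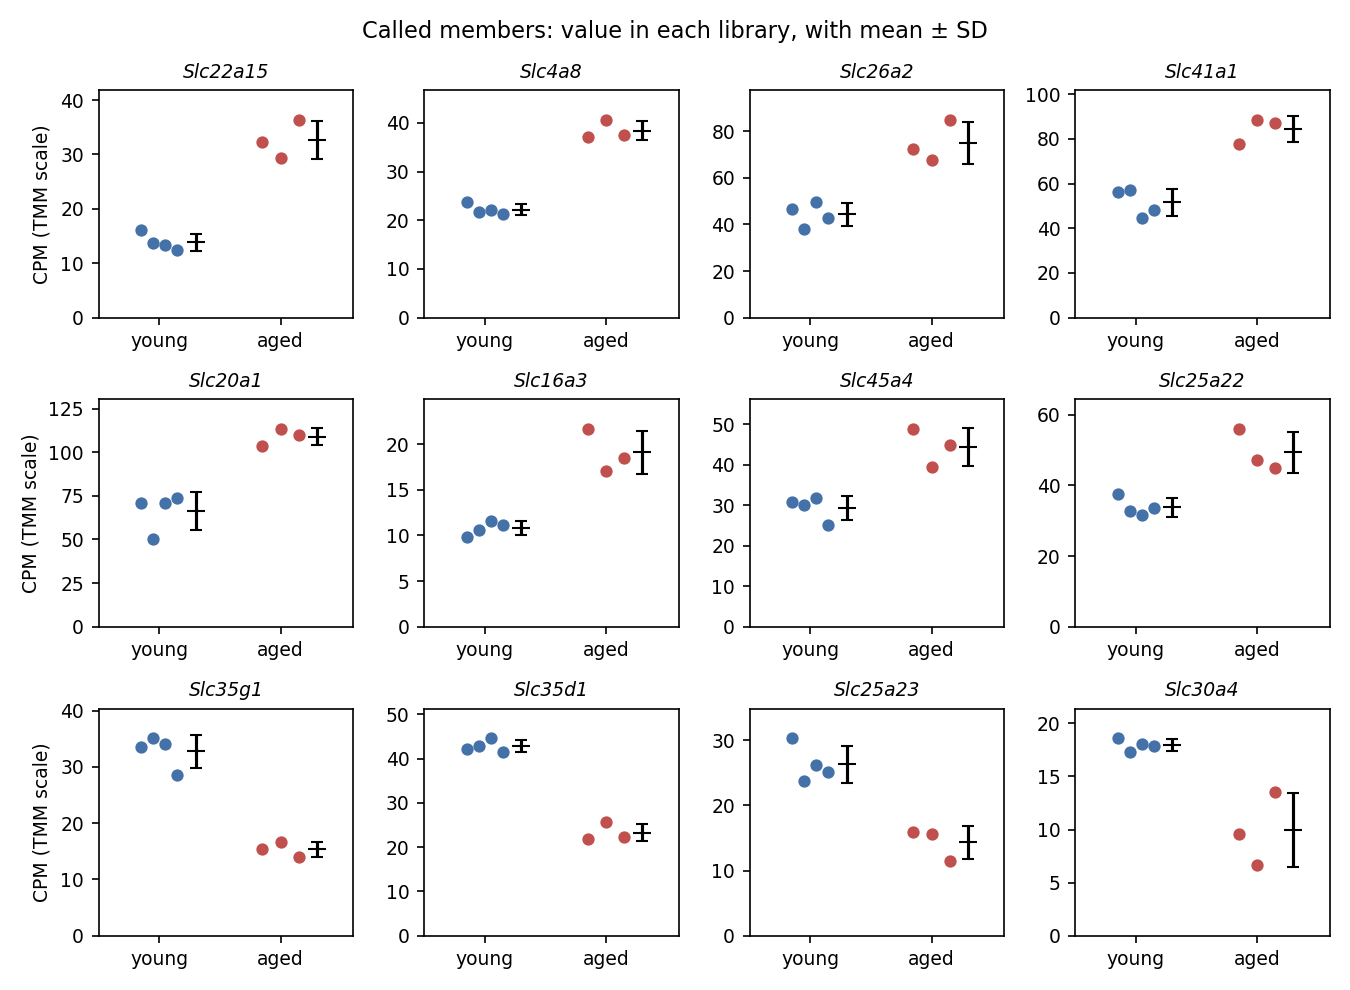
Value in each library of 12 called members in CPM on the TMM scale (vertical axes start at 0), with points for libraries and bars for mean ± SD (4 young, 3 aged). In each panel the aged and the young points do not overlap; Slc30a4 has the widest aged spread of these panels for its level, from 6.65 to 13.6 CPM.

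Organic cation, organic anion and amine transporters had 3 of 10 members higher, against 9.8% of all genes tested. Slc22a15, a carrier of carnitine and related zwitterions at chr3:101855776-101924453 on GRCm38, was at 32.3, 29.3 and 36.3 CPM in the aged and 16.1, 13.7, 13.3 and 12.4 CPM in the young libraries. All aged values were well above the young ones, and the log2 fold change was 1.24 (SE 0.131, adjusted p = 0.00121). It was called in all 7 leave-one-out fits and in all 10 other alternatives. Slc22a17, known as a receptor for the iron-binding protein lipocalin-2, was at 6.90, 7.15 and 6.64 CPM and 4.37, 3.99, 2.76 and 2.37 CPM (log2 fold change 1.03, SE 0.244, adjusted p = 0.0245). Slc14a1, a urea transporter best known from red cells and kidney, rose by 0.29 on the log2 scale (SE 0.0828, adjusted p = 0.0480), from 81.3, 80.4, 82.3 and 76.7 CPM to 92.5, 105 and 96.0 CPM. Among the aged libraries its order was that of the haemoglobin reads described below, lowest in replicate 1 and highest in replicate 2, while the young libraries with the most and the fewest of these reads, replicates 1 and 2, held 81.3 and 80.4 CPM. The part of red cells in its rise was not tested.

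Organic, fatty and bile acid transporters had 2 of 12 members higher (16.7% called, the share of all genes tested). Slc16a3 encodes MCT4, a lactate exporter of cells with high glycolysis. It was at 21.7, 17.1 and 18.5 CPM in the aged and 9.79, 10.6, 11.6 and 11.2 CPM in the young libraries, a log2 fold change of 0.82 (SE 0.133, adjusted p = 0.00568). The aged libraries were all higher than the young ones. MCT4 is also abundant in myeloid cells, and aged replicate 1, with the highest Slc16a3, also held the highest sum of neutrophil markers, 5379 CPM. Aged replicates 2 and 3, with Slc16a3 at 17.1 and 18.5 CPM, had neutrophil sums of 1911 and 702 CPM. The part of myeloid cells in the rise was not tested. The related lactate and pyruvate carrier Slc16a1 (MCT1) ranged from 39.03 to 125.4 CPM in young and from 58.8 to 174 CPM in aged Tregs (adjusted p = 0.805). Slc33a1, which carries acetyl-CoA into the endoplasmic reticulum, averaged 18.2 ± 2.86 CPM in the 3 aged and 11.2 ± 0.586 CPM (both SD) in the 4 young libraries, a rise with a log2 fold change of 0.70 (adjusted p = 0.0128). Since 32.02% of its exon length overlaps Gm26850, its reads cannot all be assigned.

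The SLC35 family, most of which carries nucleotide sugars into the Golgi apparatus and endoplasmic reticulum, had 3 of 21 members higher and 3 lower (28.6% called, against 16.7% of all genes tested), with a median of 0.071. Slc35d1, which carries UDP-glucuronic acid and UDP-N-acetylgalactosamine for the synthesis of chondroitin, lies at chr4:103170649-103215164. It was at 21.9, 25.6 and 22.4 CPM in the aged and 42.1, 42.8, 44.6 and 41.6 CPM in the young libraries, a log2 fold change of -0.88 (SE 0.0988, adjusted p = 0.00138). Both groups were narrow and far apart.

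The other members of this family that changed are not established nucleotide sugar carriers. Slc35g1, an endoplasmic reticulum protein known to bind the calcium sensor STIM1, lies at chr19:38395980-38405610 and had the largest fall among called members. It was at 15.5, 16.6 and 13.9 CPM in the aged and 33.5, 35.1, 34.1 and 28.5 CPM in the young libraries, a log2 fold change of -1.10 (SE 0.124, adjusted p = 0.00138), and no aged value reached 17 CPM. Slc35b1, which exchanges ATP and ADP across the endoplasmic reticulum, rose from 26.9, 28.5, 28.9 and 30.03 CPM to 36.8, 39.2 and 37.5 CPM (log2 fold change 0.40, adjusted p = 0.0209). Slc35e4, with no known substrate, had the largest rise among called members, a log2 fold change of 1.39 (SE 0.310, adjusted p = 0.0201) at 32, 39 and 54 counts in the aged and 11, 26, 17 and 25 counts in the young libraries. Slc35f2 rose by 0.55 (adjusted p = 0.0421) and Slc35e1 fell by 0.35 (adjusted p = 0.0475) on the log2 scale, with calls held in 1 of 7 leave-one-out fits. Slc35a4, the family member with the highest level per kilobase, was at 63.0, 66.1 and 58.4 CPM and 69.0, 70.8, 74.2 and 69.8 CPM and was not called (adjusted p = 0.162).

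Mitochondrial carriers formed the class with the most members, 38, of which 2 rose and 1 fell (7.89%, against 16.7% of all genes tested), with a median log2 fold change of 0.012. Slc25a23, a calcium-regulated carrier that exchanges ATP-magnesium for phosphate, fell from 30.3, 23.8, 26.2 and 25.1 CPM in the young to 15.9, 15.6 and 11.4 CPM in the aged libraries, a log2 fold change of -0.88 (SE 0.156, adjusted p = 0.00830). Slc25a22, a mitochondrial glutamate carrier, rose from 37.7, 32.7, 31.5 and 33.5 CPM to 55.9, 47.2 and 44.8 CPM, a log2 fold change of 0.54 (SE 0.112, adjusted p = 0.0147). Neither gene had overlapping groups. Slc25a28, the iron importer mitoferrin-2, had a rise of 0.44 in log2 (adjusted p = 0.0328), a call that held in 1 of 7 leave-one-out fits. The ADP-ATP exchanger Slc25a5 had the highest level of the class per kilobase of exon. It was at 347, 274 and 301 CPM in the aged and 377, 452, 397 and 374 CPM in the young libraries, apart but not called (log2 fold change -0.38, adjusted p = 0.0706). Reads of Slc25a5 that also align to its processed pseudogenes may be missing from these counts.

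Zinc transporters had 1 of 18 members higher and 2 lower, which is 16.7% called, as over all genes tested. Slc30a4, which moves zinc out of the cytosol into vesicles, was at 9.61, 6.65 and 13.6 CPM in the aged and 18.6, 17.3, 18.1 and 17.8 CPM in the young libraries, a log2 fold change of -0.85 (SE 0.218, adjusted p = 0.0321). Slc39a3, a zinc importer, was at 15.7, 16.01 and 15.1 CPM and 20.3, 21.7, 22.98 and 27.2 CPM, a log2 fold change of -0.56 (SE 0.132, adjusted p = 0.0235). Slc39a13, which releases zinc from internal stores, rose from 15.1, 15.7, 17.8 and 15.2 CPM to 23.4, 30.3 and 21.9 CPM, a log2 fold change of 0.66 (SE 0.143, adjusted p = 0.0180). The 3 genes therefore changed in different directions, and they were called in 3, 3 and 5 of 7 leave-one-out fits. Slc30a1, the zinc exporter of the plasma membrane, averaged 16.8 ± 4.65 CPM in the 3 aged and 15.4 ± 4.49 CPM (both SD) in the 4 young libraries, and Slc39a1 averaged 41.9 ± 2.54 and 40.5 ± 2.35 CPM, both not called (adjusted p = 0.780 and 0.753).

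Among transporters of other metals and haem, 1 of 9 was higher (11.1%, against 9.8% of all genes tested). Slc41a1, a magnesium transporter, rose from 56.1, 57.0, 44.8 and 48.4 CPM to 77.8, 88.4 and 87.0 CPM, a log2 fold change of 0.71 (SE 0.110, adjusted p = 0.00483). Slc40a1 encodes ferroportin, the iron exporter of splenic red pulp macrophages. It was at 37.7, 48.4 and 58.9 CPM in the aged and 62.6, 61.7, 61.9 and 68.4 CPM in the young libraries, lower in each aged library but not called (log2 fold change -0.40, adjusted p = 0.0925). The summed level of the 10 macrophage markers was also lower in every aged library, with 224, 282 and 339 CPM in aged replicates 1 to 3. Among them Adgre1, Csf1r, Vcam1 and Mrc1 were called lower, with log2 fold changes of -0.70, -1.12, -0.56 and -0.93. The other 6 overlapped between the ages and were not called. Of these, C1qa, C1qb, C1qc and Cd68 had values of -0.32, -0.28, -0.34 and -0.059, and Spic and Cd5l had values of 0.24 and 0.30. The part of these cells in the Slc40a1 values was not tested. Slc11a1, a metal exporter of phagosomes, and Slc15a3, a peptide and histidine carrier of myeloid lysosomes, whose exons overlap other genes over 28.1% of their length, had log2 fold changes of -0.54 (adjusted p = 0.124) and 0.57 (adjusted p = 0.0939).

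Of 7 nucleoside and nucleotide transporters, Slc29a3, an exporter of nucleosides from lysosomes, was called (14.3%, against 16.7% of all genes tested). It fell from 43.7, 40.2, 45.1 and 44.9 CPM to 35.0, 26.9 and 26.5 CPM, a log2 fold change of -0.56 (SE 0.124, adjusted p = 0.0193), called in 2 of 7 leave-one-out fits. Slc28a2 and Slc29a1, which take up nucleosides, were not called (adjusted p = 0.285 and 0.494). Of 10 vitamin and choline transporters 1 was higher, near the 9.8% of all genes tested. It was the riboflavin carrier Slc52a3, which rose from 4.54, 4.13, 3.16 and 1.86 CPM to 7.51, 7.45 and 7.39 CPM, a log2 fold change of 1.12 (SE 0.286, adjusted p = 0.0316). The folate carrier Slc19a1 and the choline transporter-like Slc44a2 had log2 fold changes of -0.24 and -0.18 (adjusted p = 0.193 and 0.252). The adaptor protein Slc9a3r1, which shares the symbol but is no transporter, was lower in each aged library and not called (log2 fold change -0.34, adjusted p = 0.0885).

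Some members varied widely between libraries. In 19 members (9.84%, against 14.9% of all genes tested and 6.41% of the protein-coding genes at the threshold) the highest library was at least 4 times the lowest, while the median of this ratio over the other 174 members was 1.65. In 15 of the 19, the 2 lowest libraries were aged replicate 1 and young replicate 2, against 25 of all 193 members. These are also the libraries with the fewest haemoglobin reads, where the summed CPM of haemoglobin genes was 12199, 147933 and 76298 in the aged and 110589, 11839.8, 58448 and 56735 in the young libraries.

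Several of these transporters are known from red cell precursors. Slc4a1 encodes band 3, the chloride-bicarbonate exchanger of the red cell membrane, and had the highest level of all members per kilobase of exon, 451 CPM. It was at 536, 4112 and 1650.2 CPM in the aged and 3773, 243, 2115 and 3006 CPM in the young libraries, a 16.9-fold range. Slc25a37, the mitochondrial iron importer mitoferrin-1 of developing red cells, was at 205, 1533 and 722 CPM and 1118, 137, 619.9 and 995 CPM. In both genes the ages overlapped almost entirely, with log2 fold changes of -0.12 (SE 0.851, adjusted p = 0.939) and 0.19 (SE 0.745, adjusted p = 0.890). Slc25a39, a mitochondrial glutathione carrier, was at 86.4, 709 and 371 CPM and 528, 100.1, 329 and 311 CPM. Slc6a9, the glycine carrier that feeds haem synthesis, was at 5.77, 57.7 and 15.3 CPM and 39.9, 2.66, 19.5 and 35.5 CPM, with 30.2% of its exon length shared with exons of other genes. The haem transporter Slc48a1 ran from 71.2 to 380.5 CPM and the NAD carrier Slc25a51 from 76.7 to 404.2 CPM. Slc7a5 and Slc16a1 are among the 15 as well, with ranges of 4.26-fold and 4.46-fold.

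The 15 genes are a description chosen after their values were seen, and the part of red cell precursors in them was not tested. Summed over the 19 members, the level was 1270.1, 8082 and 3545 CPM in aged replicates 1 to 3 and 6798, 828.5, 3995 and 5396 CPM in young replicates 1 to 4. Summed over the other 174 members it was 6995, 7389.8 and 6990.1 CPM and 7203, 6979, 6887 and 6942 CPM. The sets were split by the range of each gene over these libraries, so that a wider range of the first sum follows from the split. Of the 19 members, 2 were called, Slc35e4 and Slc52a3, and both had other lowest libraries. The peptide transporter Slc15a2 had the widest range, with 43.9, 1.11 and 17.5 CPM in the aged and 93.0, 49.1, 77.2 and 27.95 CPM in the young libraries. It was lowest in aged replicate 2 and was not called (log2 fold change -1.56, SE 0.835, adjusted p = 0.235).

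**Figure D4:**
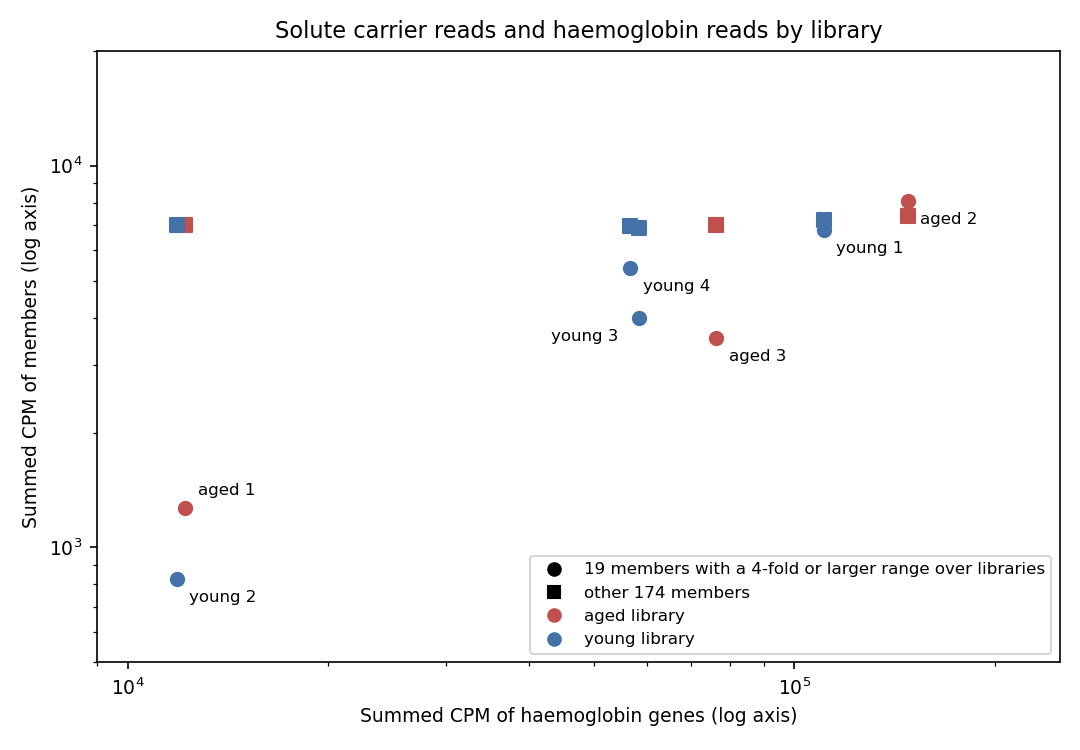
Summed CPM of the 19 members with a range of at least 4-fold (circles) and of the other 174 members (squares) against the summed CPM of haemoglobin genes in each library, both axes on a log scale. Aged libraries are red and young libraries blue; the circles are lowest in aged replicate 1 and young replicate 2, the squares lie between 6887 and 7390 CPM, and the sets were split by the range of each gene.

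When aged replicate 1 and young replicate 2 were both left out, an alternative chosen after seeing the data, 41 members were called (21.2%, against 23.1% of all genes tested in that fit). Of these 26 were higher (13.5%, against 12.6%) and 15 lower (7.77%, against 10.5%), and 27 were among the 31. The share of all genes called was also larger in that fit. The lost calls were Slc2a3 (0.25, adjusted p = 0.125), Slc2a6 (0.54, adjusted p = 0.0665), Slc9a5 (0.85, adjusted p = 0.0699) and Slc30a4 (-0.84, adjusted p = 0.0611). The 14 gained calls went both ways and lay in several classes, for example Slc25a5 (-0.42, adjusted p = 0.0237) and Slc50a1 (0.71, adjusted p = 0.00703). Of the 14, 4 were among the 28 amino acid and peptide members, all lower in the aged libraries. They were Slc7a1 (-0.62, adjusted p = 0.00841), the taurine carrier Slc6a6 (-0.57, adjusted p = 0.0192), Slc38a2 (-0.56, adjusted p = 0.0254) and Slc38a10 (-0.36, adjusted p = 0.0400). The 10.5% of all genes called lower in that fit takes in kept and gained calls alike. The share of all genes that gained a lower call was not counted. Over all alternatives the adjusted p-values ranged from 0.0307 to 0.194 for Slc2a3, 0.0342 to 0.129 for Slc2a6, 0.0214 to 0.115 for Slc9a5, 0.00229 to 0.110 for Slc30a4, 0.0162 to 0.497 for Slc6a6, 0.0254 to 0.263 for Slc38a2 and 0.0292 to 0.584 for Slc38a10. Slc6a6 and Slc38a10 were named after their values were seen.

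The called members lay on 16 chromosomes. The median GC content was 53.003% in members called higher, 51.96% in members called lower and 50.9% in members not called, and the median exon length was 4869, 5388 and 4570.5 bases. With the GC content and length trends of each library removed, 22 members were called higher (11.4%) and 12 lower (6.22%), of which 26 were among the 31, and none changed sign. Over all genes tested the same step turned the larger share from higher (9.8% against 6.94% lower) to lower (10.7% against 8.61% higher), and among the protein-coding genes at the threshold it gave 11.9% lower and 7.56% higher. Of the 31 calls, Slc14a1, Slc25a28, Slc35b1, Slc35f2 and Slc43a2 were lost.

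Genes beside the members were read from 6 lists. These hold partners and regulators, genes that handle the substrates, and 19 tested transporters of the same families under other symbols. Of 78 genes tested, 4 were higher and 10 lower in aged Tregs, against 9.8% and 6.94% of all genes tested. The total of 14 is near the background of 16.7%, but the higher calls lie under and the lower calls over their shares. These counts are a description beside the shares. Txnip and Arrdc4 encode alpha-arrestins that remove glucose transporters from the cell surface, and Txnip fell to 419.9 ± 32.2 CPM over the 3 aged libraries from 1032 ± 134 CPM (both SD) over the 4 young ones, whereas Arrdc4 rose from 12.7 ± 0.978 CPM to 29.8 ± 5.74 CPM. The log2 fold changes were -1.30 (SE 0.141, adjusted p = 0.00126) and 1.23 (SE 0.150, adjusted p = 0.00178). Sgk1, a kinase that regulates ion carriers, fell by 1.52 in log2 terms (adjusted p = 0.00158), while the ubiquitin ligase gene Itch fell by 0.42 (adjusted p = 0.0195).

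Of the 17 genes on amino acid handling, Glud1, Ddit4 and Myc fell and none rose. Glud1, which feeds glutamate into the citric acid cycle, had a log2 fold change of -0.50 (adjusted p = 0.0124), and Ddit4, an inhibitor of mTORC1, one of -1.19 (adjusted p = 0.0301), called in 2 of 7 leave-one-out fits. Myc, a transcription factor that drives several amino acid transporters in activated T cells, had a log2 fold change of -0.71 (SE 0.156, adjusted p = 0.0189), a call that held in 3 of 7 leave-one-out fits. None of 8 sugar and lactate enzymes was called, among them Hk1, Hk2 and Ldha (adjusted p = 0.373, 0.505 and 0.803). Of these 8, 1 had an unadjusted p under 0.05, and DESeq2 and limma voom called 0. Of 10 nucleoside genes, the kinase genes Adk and Uck2 fell by 0.68 and 0.89 on the log2 scale, and Tk2 and Nt5e rose by 0.45 and 0.65 (adjusted p = 0.00833, 0.00396, 0.0289 and 0.0318). Of 10 metal genes, Aco1 fell by 0.44 (adjusted p = 0.0131). Among 19 transporters of these families with other symbols, Mfsd10 rose by 0.66 (adjusted p = 0.00567) and the sphingosine-1-phosphate exporter gene Spns2 fell by 1.03 (adjusted p = 0.0242). The calls of Spns2, Itch and Nt5e held in 3 and that of Tk2 in 2 of 7 leave-one-out fits.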

How the data were processed

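The authors deposited raw read counts per Ensembl gene for each library, in the layout of HTSeq-count in union mode without strand, from SMART-Seq cDNA with no molecular identifiers. The submitters' processing notes name the build mm10, and the aligner is not given in the sources used here. Reads that fell on no single gene (13.1% to 20.9%) were left out. The authors also deposited a series table with a signal, the counts over one size factor per library, of which gene symbols and types were used. It also holds the authors' fold changes and p-values, not used here. Coordinates, exon lengths and exon overlaps are those of GENCODE M21 on GRCm38. All 320 Slc genes matched it.

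The test was that of edgeR 4.0.16 in R 4.3.3 (TMM, filterByExpr by group, quasi-likelihood test, no covariate), since the files hold counts, and limma 3.58.1, which the study's methods name, was an alternative. CPM is on the TMM scale. Standard errors were computed as the log2 fold change divided by the square root of F. Without strand, overlapping genes share reads, and exon overlap was over 20% in 8 members. P-values cover the spread between these replicates, and replicates were further apart than sampling noise (chi-square over its degrees of freedom, 8.16 to 165).

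Classes are by substrate and mostly follow family number, but some families were split between classes. For example, Slc16a10 was placed with the amino acid transporters and Slc16a7 with the organic acid transporters. Named were the 10 largest rises and all 8 falls among called members, the member with the highest mean CPM per kilobase in each class, transporters known from T cells and from other blood cells, and the members at the threshold. The remaining called members, and genes with a wide range, were named after their values were seen. The members and lists were chosen with earlier results of these data known. Alternatives were DESeq2 1.42.0, limma voom, RLE normalization, library size only, no filter, a minimum of 10 counts, haemoglobin, immunoglobulin and mitochondrial genes removed, removal of GC content and length trends (splines with 5 degrees of freedom), a block on the replicate number, leaving out each library, and a log2 fold change of at least 1 in size. Leaving out aged replicate 1 and young replicate 2 together was added after the data were seen.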

Additional observations from a re-analysis of the deposited data

Results flagged for a closer look

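In 5 of 58 named or called members, 1 of the 4 young libraries stood apart from the other young ones, with a gap over the range above 0.829. Chance gives such a gap in about 1 in 20 groups. Slc20a1 was at 50.4 CPM in young replicate 2, below 70.6 to 74.0 CPM in the others. Slc35f2 was at 14.3 CPM in young replicate 2, above 10.4 to 10.8 CPM. Slc28a2 was at 143.9 CPM in young replicate 3, below 160.3 to 162.7 CPM. Slc40a1 was at 68.4 CPM in young replicate 4, above 61.7 to 62.6 CPM. Slc22a2, a member just inside the threshold, was at 1.08 CPM in young replicate 4, below 2.92 to 3.15 CPM.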

How the results depend on the processing

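The number of members called higher (23) and lower (8) was within 1.5 times of these values with DESeq2, limma voom, RLE normalization, no filter, a minimum of 10 counts, mitochondrial, immunoglobulin and haemoglobin genes left out, and GC content and length trends removed. With library size only, 15 were higher (11.4% of members were called in either direction, against 13.2% of all genes), and the median log2 fold change of the members was -0.0099 in place of 0.067, while that of all genes tested was -0.052 in place of 0.019. With a log2 fold change of at least 1 in size, 5 were higher and 1 was lower (2.59% and 0.518%, against 5.44% and 1.86% of all genes and 3.5% and 1.39% of the protein-coding genes at the threshold). Without aged replicate 1 and young replicate 2 together, 15 were lower. Over the 7 fits that left out one library, 10 to 24 members were higher and 3 to 14 lower, with a median log2 fold change of 0.0029 to 0.15. The cause of these differences was not tested. With the replicate number as a block, 2 were higher and 2 lower (Slc22a15, Slc26a2, Slc35g1 and Slc35d1), and of all genes 202 were higher and 90 lower. The correlation of deviations from the group means was -0.091, -0.29 and -0.14 for the same-numbered pairs, and no library correlated best with its own number. These values gave no sign that the numbers pair the libraries. They cannot exclude a pairing, because the deviations within a group offset each other. For the 58 named or called members, under every alternative but the fold change limit, 819 values kept their side of the threshold, 151 lost a call, 16 gained one and none turned direction as a call. A count of 3 was taken as the limit of detection, and each member is well above it.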

Other observations

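The threshold of 10 counts in each library left out 127 protein-coding Slc genes, of which 103 were under the filter on low counts and 24 passed it. A gene under the threshold could pass that filter through the libraries of one age alone, so their values are a description with no test. Slc7a10, a carrier of small neutral amino acids, Slc24a3, a potassium-dependent sodium-calcium exchanger, and Slc7a11, the cystine-glutamate exchanger, whose counts are given above, had no aged count below a young one. In Slc45a3 and in Slc16a7, a monocarboxylate carrier with 10, 5 and 14 counts in the aged and 23, 31, 27 and 29 in the young libraries, each aged count was below each young one. The ages were also apart in other genes of the 24, such as Slc6a7 and Slc7a4 (higher in the aged libraries) and Slc16a9 (lower). Slc7a10, Slc45a3, Slc16a7, Slc6a7, Slc7a4 and Slc16a9 were named after their values were seen.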
